A study of Mus musculus with 15 samples.

Results

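Expression of 9 genes of the classical complement pathway and its neighbours (C1qa, C1qb, C1qc, C1ra, C2, C3, C4b, Cfb and Serping1) was examined in whole brain of young and old mice that ate freely or every other day. The genes were taken by name out of the 43629 genes counted. They were chosen by their measured levels in all 15 mice, above all by how old AL mice compared with young AL mice, so that comparison is a description: no p is given for a member in it, and the number called in it only describes how the genes were picked. The other comparisons use the same mice, so any p or false discovery rate given there is a description too and no independent evidence. All 15 animals were male wildtype C57BL/6J mice, a single inbred strain, and each library came from the whole brain of 1 mouse. At 3 months of age, 4 mice had free access to food (ad libitum, AL, the young AL group) and 3 were fed every other day (EOD, called IF in the sample labels, the young EOD group). At 24 months of age, 4 mice belonged to the old AL group and 4 to the old EOD group. Per the study's methods, young EOD mice had been on the regimen for a short time and old EOD mice for most of their life.

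Complement is a cascade of plasma and tissue proteins that tags targets for uptake and can damage membranes. In the classical pathway the recognition protein C1q, built from A, B and C chains, binds a target and activates the proteases C1r and C1s, which cleave C4 and C2 to form an enzyme that cleaves C3. In brain, microglia are the main source of C1q, astrocytes and other glia make C4 and C3, and the pathway is known for tagging synapses that microglia remove during development. RNA of the whole brain was measured, so that a larger number of cells of a type and more RNA per cell cannot be told apart.

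Several of the genes are neighbours in the genome (build GRCm38). C1qa (ENSMUSG00000036887, chr4:136895917-136898803), C1qb (ENSMUSG00000036905, chr4:136880129-136886187) and C1qc (ENSMUSG00000036896, chr4:136889804-136893065) lie on the minus strand within 18675 bases. C4b (ENSMUSG00000073418, chr17:34728380-34743882), Cfb (ENSMUSG00000090231, chr17:34856374-34862518) and C2 (ENSMUSG00000024371, chr17:34862604-34898265) share a stretch of chromosome 17, and Cfb and C2 are separated by 85 bases. C3 (ENSMUSG00000024164, chr17:57203970-57228136) is elsewhere on that chromosome, C1ra (ENSMUSG00000055172, chr6:124512632-124523440) is on chromosome 6, and Serping1 (ENSMUSG00000023224, chr2:84765387-84775444) is on chromosome 2.

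For C1qb and C3, examples of a recognition subunit and of the central component that were both higher in old brains, the 250 bases before the RefSeq start site are shown, read on the gene's strand from build GRCm38.p6 (C1qb, chr4:136886201-136886450; C3, chr17:57228137-57228386; both minus strand). RefSeq promoter entries were matched for 4 of the 9 genes, C1qb, C1qc, C1ra and C3. Capitals mark matches to GAGGAA, a core that ETS factors such as the myeloid factor PU.1 can bind, or to TTGCNNAA, a form of the C/EBP site. Both strands were searched, and these motifs and a form of the interferon-stimulated response element were chosen after the sequences had been seen.
C1qb promoter: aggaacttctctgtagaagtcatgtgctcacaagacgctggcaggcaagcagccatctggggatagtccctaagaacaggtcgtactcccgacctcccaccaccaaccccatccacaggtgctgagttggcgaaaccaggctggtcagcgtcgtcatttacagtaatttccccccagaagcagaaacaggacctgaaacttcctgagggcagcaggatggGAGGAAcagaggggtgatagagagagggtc
C3 promoter: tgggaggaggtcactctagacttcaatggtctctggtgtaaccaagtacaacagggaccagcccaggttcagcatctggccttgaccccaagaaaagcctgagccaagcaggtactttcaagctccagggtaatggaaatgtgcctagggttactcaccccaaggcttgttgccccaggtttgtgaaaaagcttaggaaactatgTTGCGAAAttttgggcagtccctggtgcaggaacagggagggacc
Counted from the start site, GAGGAA matched at positions -30 to -25 of C1qb and, on the other strand, at -193 to -188 of C1qc. TTGCNNAA matched at -45 to -38 of C3, and the interferon-stimulated response element matched none of the 4 promoters. Of 32851 mouse promoters of this length, 23.3% held GAGGAA, 9.56% TTGCNNAA and 2.98% the interferon-stimulated response element, and each match is a description of letters only.

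C4b has a close paralog, C4a, and the readout rests on bases by which they differ. Over the 5367 aligned bases of their longest annotated transcripts, C4b and C4a were 96.1% identical, and 34.6% of the 50-base windows of C4b transcripts, the length of the reads, also occurred in C4a. The stretch of 60 coding bases of C4b that differed most, in exon 21 of both (C4b, chr17:34735430-34735489; C4a, chr17:34816086-34816145; both minus strand), is shown with the 13 differing bases in capitals.
C4b exon 21: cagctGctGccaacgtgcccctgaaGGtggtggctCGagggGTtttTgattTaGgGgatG
C4a exon 21: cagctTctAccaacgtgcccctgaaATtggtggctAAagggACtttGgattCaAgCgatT
Reads from windows without a difference match both genes equally, and the minimum mapping quality of 5 used in counting is above what the aligner STAR gives such reads. C4a had between 2 and 22 reads per mouse where C4b had between 81 and 1205. C4a made up 1.83 to 7.86% of the reads of both genes in young mice and 0.242 to 1.01% in old mice, so the values below belong to C4b by the counting. C1ra shared 50.8% of its windows with C1rb and Gm18840 (98.0% identity of C1ra with C1rb over 2429 aligned bases), and its level is uncertain for that reason. C1rb had no read in any mouse.

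The libraries held between 5198748 and 13610729 counts per mouse. Levels are given as CPM (counts scaled to a library of 1000000, with a correction for composition), and a difference between groups as a log2 fold change with its standard error (SE). A gene was called where its false discovery rate (FDR, from the edgeR quasi-likelihood test, adjusted by Benjamini-Hochberg across the 15864 genes tested) was under 0.1. Of the 9 genes, 8 passed the filter on low counts, and Cfb did not. Young AL mouse 3 stood apart from the other 14 mice, with a median correlation with the rest of 0.9573 against 0.9801 to 0.9873 and 17280 genes detected against 19054 to 20880, and counts of calls are therefore also given without it. In the file headers the libraries were spread over 3 sequencing lanes, and lane 3 held no young EOD mouse. Each of the 9 microglia, 5 neuron, 7 astrocyte and 5 oligodendrocyte markers examined had reads.

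**Figure D1:**
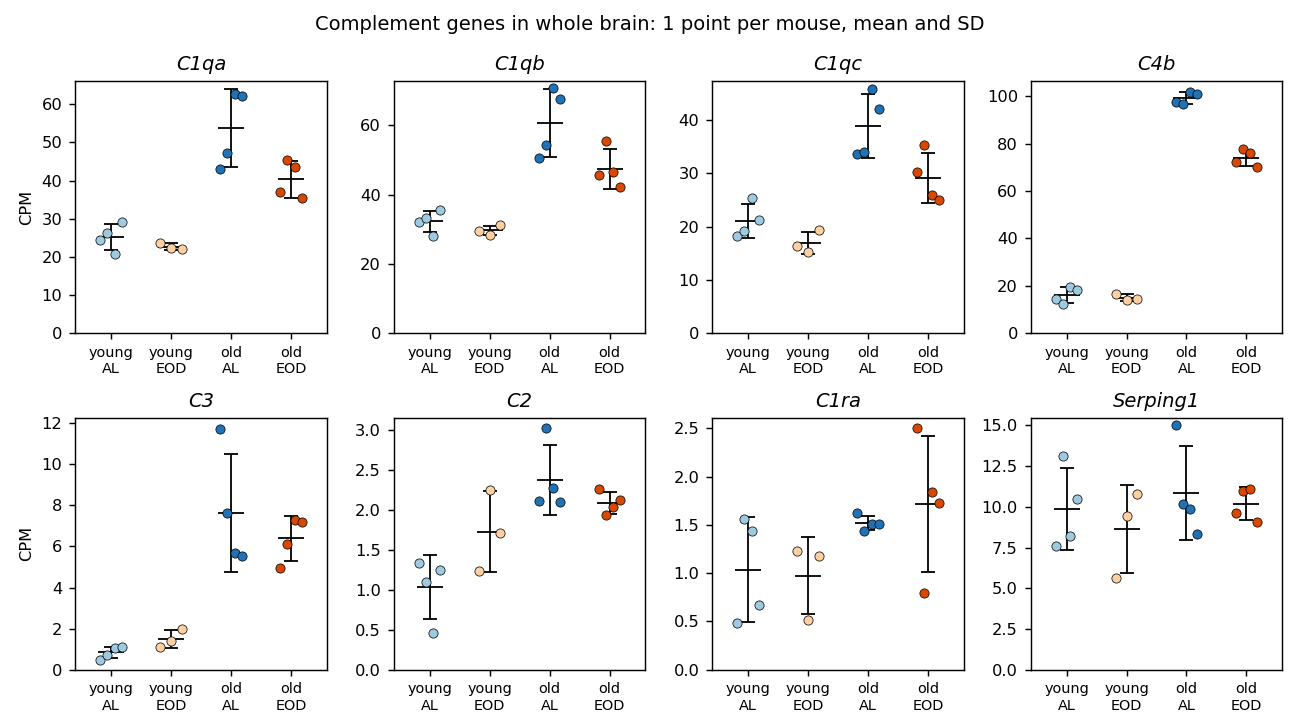
Expression in CPM (y axes, from 0) of 8 complement genes in each of the 15 mice, by group, with 1 point per mouse and bars for the mean and SD. For C4b the old AL mice (96.8 to 102 CPM) lie above the old EOD mice (70.2 to 77.8 CPM), and both lie above all young mice (12.1 to 19.5 CPM).

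All 3 C1q subunit genes were higher in old than in young brains under both diets. C1qa, which encodes the A chain, measured 24.5, 26.3, 20.8 and 29.0 CPM in young AL mice 1 to 4, and 43.1, 47.1, 62.8 and 62.1 CPM in old AL mice 1 to 4. It measured 23.7, 22.2 and 22.1 CPM in young EOD mice and 37.0, 45.4, 43.6 and 35.5 CPM in old EOD mice. Every old mouse was above every young mouse, and old AL and old EOD mice overlapped. C1qb, the B chain, ranged from 28.1 to 35.6 CPM in young AL, from 28.4 to 31.1 in young EOD, from 50.5 to 70.7 in old AL and from 42.1 to 55.6 CPM in old EOD mice. C1qc, the C chain, ranged from 18.2 to 25.4 CPM in young AL, from 15.3 to 19.3 in young EOD, from 33.7 to 45.8 in old AL and from 25 to 35.3 CPM in old EOD mice. Old and young mice on the same diet did not overlap in either gene.

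The log2 fold change between old AL and young AL mice was 1.10 (SE 0.129) for C1qa, 0.91 (SE 0.114) for C1qb and 0.88 (SE 0.135) for C1qc. Between old EOD and young EOD mice it was 0.83 (SE 0.145, edgeR FDR 0.0109) for C1qa, 0.67 (SE 0.128, FDR 0.0233) for C1qb and 0.77 (SE 0.154, FDR 0.0313) for C1qc. In every lane that held both ages the ratio of old to young mice was above 1 for each subunit, with log2 ratios of 0.63 to 1.4 in AL and 0.62 to 1.04 in EOD mice. The proportions of the subunits, computed from counts per kilobase (kb) of exon, were 38.9 ± 2.15% for C1qa, 45.2 ± 1.5% for C1qb and 15.9 ± 1.98% for C1qc (mean ± SD, n = 15). In young AL mouse 3 C1qc made up 22.3%, against 13.7 to 16.8% in the other 14 mice. Without that mouse the mean share of C1qc was 15.5 ± 0.928% (SD, n = 14). The share of C1qb was 46.5 to 47.8% in young EOD and 43.6 to 45.2% in old EOD mice, without overlap. In AL mice it was 43.8 to 47.3% at the young and 43.3 to 44.2% at the old age, overlapping only through young AL mouse 3 (43.8%). The share of C1qa was 34 to 38.9% in young AL and 39.4 to 41.6% in old AL mice, and overlapped between ages in EOD mice. Differences in the shares were not tested.

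**Figure D2:**
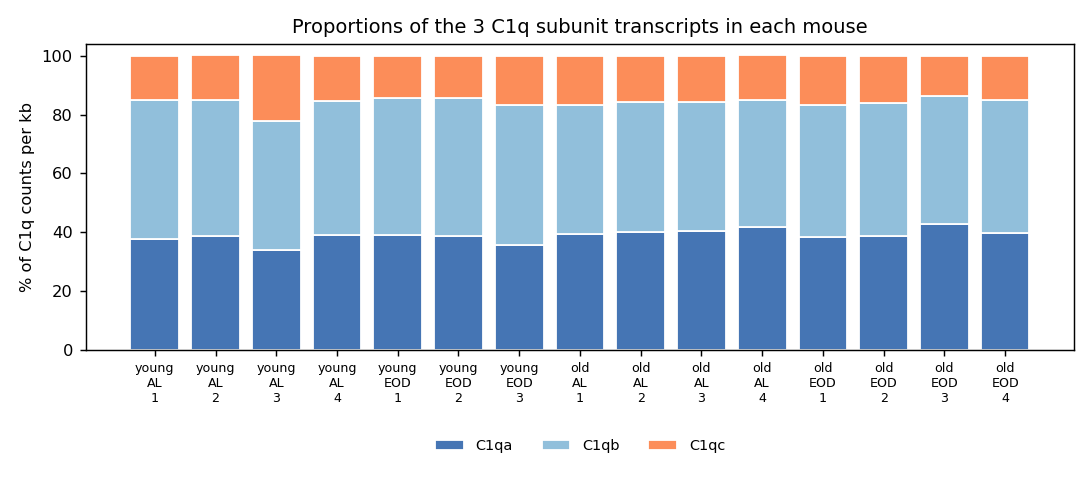
Share of C1qa, C1qb and C1qc in the summed C1q counts per kb (y axis, %) for each of the 15 mice (x axis), as stacked bars that add to 100%. C1qc is largest in young AL mouse 3, at 22.3%. The share of C1qb is lower in old EOD (43.6 to 45.2%) than in young EOD mice (46.5 to 47.8%).

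Because microglia are the main source of C1q in brain, the sum of its 3 transcripts was set beside the sum of 9 microglia markers (Cx3cr1, P2ry12, P2ry13, Tmem119, Csf1r, Aif1, Siglech, Sall1 and Gpr34). The markers summed to 268 to 296 CPM in young AL mice, 255 to 275 in young EOD mice, 292 to 318 in old AL mice and 281 to 331 CPM in old EOD mice. The ages did not overlap in EOD mice. In AL mice they overlapped only through young AL mouse 3 (296 CPM), and the other young AL mice had 268 to 282 CPM. The median log2 fold change of the 9 markers with age was 0.17 in AL (-0.02 to 0.32) and 0.30 in EOD mice (0.04 to 0.54). Summed C1q amounted to 25.1 to 32% of the marker sum in young AL mice and 24 to 27.3% in young EOD mice. It amounted to 42.5 to 61.5% in old AL mice and 34.1 to 41.9% in old EOD mice, so that the old groups lay above the young groups, and the lowest old AL mouse (42.5%) was just above the highest old EOD mouse (41.9%). The part of the microglia markers in the C1q differences was not tested.

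**Figure D3:**
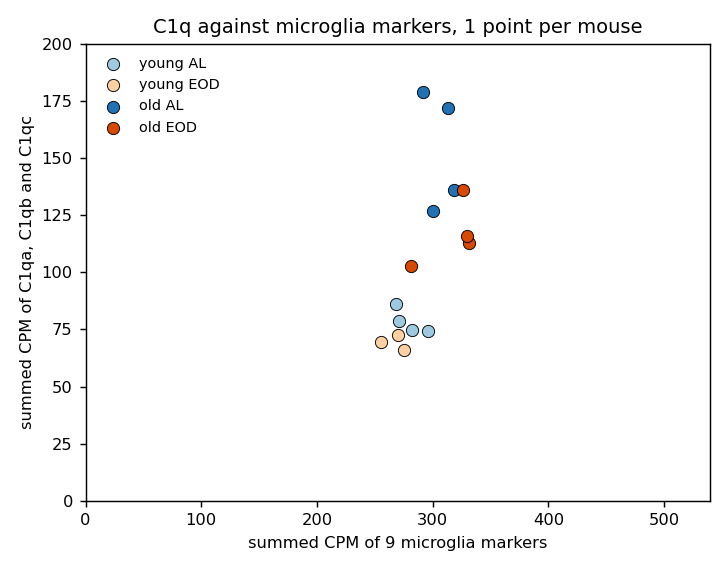
Summed CPM of C1qa, C1qb and C1qc (y axis) against the summed CPM of 9 microglia markers (x axis), with 1 point per mouse in 4 groups. The marker sums of old mice (281 to 331 CPM) overlap with those of young mice (255 to 296 CPM, the highest in young AL mouse 3). Old mice lie higher, with a C1q sum of 127 to 179 CPM in old AL and 103 to 136 CPM in old EOD mice.

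The proteases of the C1 complex were scarce. C1ra, which encodes C1r, the protease that activates C1s, had 3 to 30 reads per mouse. It ranged from 0.482 to 1.56 CPM in young AL, from 0.516 to 1.23 in young EOD, from 1.44 to 1.62 in old AL and from 0.797 to 2.51 CPM in old EOD mice. The groups overlapped in each comparison, and the log2 fold change with age was 0.52 (SE 0.422) in AL and 0.78 (SE 0.468, edgeR FDR 0.961) in EOD mice. C1s1, which encodes C1s and lies 6904 bases from C1ra, had 0 to 20 reads per mouse and was not called in any comparison. For C1s1 the log2 fold change with age was 1.57 (SE 0.575, edgeR FDR 0.35) in AL mice, and 1.11 without young AL mouse 3. In EOD mice it was 0.12 (SE 0.581, edgeR FDR 0.995). Serping1 encodes the inhibitor that removes C1r and C1s from the activated complex, and it was the member whose level differed least with age. It ranged from 7.59 to 13.1 CPM in young AL, from 5.65 to 10.8 in young EOD, from 8.32 to 15 in old AL and from 9.04 to 11.1 CPM in old EOD mice. All 4 groups overlapped, with a log2 fold change with age of 0.13 (SE 0.212) in AL and 0.26 (SE 0.237, edgeR FDR 0.991) in EOD mice.

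C4b, the component cleaved first by the activated C1 complex, showed the clearest separation by age. It measured 14.3, 12.1, 19.5 and 18.3 CPM in young AL mice 1 to 4 and 97.6, 96.8, 102 and 101.0 CPM in old AL mice 1 to 4. In EOD mice it measured 16.5, 13.9 and 14.3 CPM at the young age and 72.2, 77.8, 75.9 and 70.2 CPM at the old age. The spread within the old AL group was small (99.5 ± 2.63 CPM, SD, n = 4), and all 4 old EOD mice were below all 4 old AL mice. The log2 fold change with age was 2.62 (SE 0.114) in AL and 2.30 (SE 0.131, edgeR FDR 9.46e-10) in EOD mice. Within lanes 1 to 3 the log2 ratio was 2.88, 2.35 and 2.47 in AL mice, and within lanes 1 and 2 it was 2.13 and 2.46 in EOD mice. Gfap, a structural protein of astrocytes, was the 1 called gene among the 7 astrocyte markers in each age comparison, and the sum of the list overlapped between ages (5020 to 5740 CPM in young and 5160 to 5890 CPM in old mice). The highest log2 fold change among the 7 was 1.22 in AL and 1.10 in EOD mice, against medians of 0.03 and -0.02. Among the 5 oligodendrocyte markers Mbp was called, higher with age, in AL mice, and none was called in EOD mice. The part of these markers in the C4b difference was not tested.

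C3, the central component whose fragments tag targets for uptake, had the highest fold of the 8 genes with age in AL mice and, in EOD mice, the highest after C4b, but came from few reads, 4 to 15 per young mouse and 30 to 94 per old mouse. It measured 0.482, 0.733, 1.06 and 1.09 CPM in young AL mice 1 to 4, and 11.7, 7.61, 5.67 and 5.55 CPM in old AL mice 1 to 4. It measured 1.13, 1.38 and 1.97 CPM in young EOD mice and 4.94, 6.14, 7.27 and 7.21 CPM in old EOD mice. Old and young mice did not overlap under either diet, old AL mouse 1 was the highest, and each young EOD mouse was above each young AL mouse. The log2 fold change with age was 3.12 (SE 0.308) in AL mice, 2.84 without old AL mouse 1, and 2.10 (SE 0.335, edgeR FDR 0.00412) in EOD mice. Within lanes it was 4.27, 2.65 and 2.35 in AL mice, where lane 1 holds old AL mouse 1, and 2.13 and 1.88 in EOD mice.

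C2, which supplies the protease of the enzyme that cleaves C3, ranged from 0.453 to 1.33 CPM in young AL and from 2.1 to 3.02 CPM in old AL mice, which did not overlap, but the difference (log2 fold change 1.22, SE 0.347) was not called. The value of 0.453 CPM was that of young AL mouse 3, and the other young AL mice ranged from 1.1 to 1.33 CPM. Over the fits that left out 1 mouse, the log2 fold change was 0.95 to 1.35. In EOD mice C2 ranged from 1.23 to 2.24 CPM at the young age and from 1.93 to 2.26 CPM at the old age, which overlapped (0.31, SE 0.368, edgeR FDR 0.995). Of the exon bases of C2, 42.8% are shared on the same strand with Gm20547, a model that spans C2 and Cfb and had no read in any mouse, so reads in the shared part may not have been counted for C2. Cfb, which supplies the corresponding protease of the alternative pathway, had 0 to 4 reads per mouse (6 in all young AL mice, 1 in young EOD, 3 in old AL and 8 in old EOD mice), and it shares 79.5% of its exon bases with Gm20547. No difference in Cfb was detectable at this depth.

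Over the 8 tested genes, 5 were called between old AL and young AL mice (C1qa, C1qb, C1qc, C3 and C4b), each higher with age, where 1.09% of all genes were called in either direction (0.946% higher). In 6 of the 8, the same 5 and C2, every old AL mouse was above every young AL mouse, which held for 2.98% of all genes. These counts describe how the genes were picked and carry no weight as evidence. Their median log2 fold change was 1.0, against -0.01 for all genes. Between old EOD and young EOD mice the same 5 genes were called, where 0.29% of all genes were called in either direction (0.258% higher), and the same 5 did not overlap between the ages, against 4.75% of all genes. The median was 0.77, against 0.00 for all genes. The EOD mice are other animals than the AL mice, but the genes were named with the values of all of them known. The counts and FDR values in EOD mice are therefore no independent evidence either. With young AL mouse 3 left out 5 were called in each age comparison, where 1.03% of all genes in AL and 0.484% in EOD mice were. Leaving out old EOD mouse 2 or any 1 of the 3 young EOD mice lowered the number in EOD mice to 3, with 2 C1q subunits lost each time (FDR 0.101 to 0.284), and leaving out old EOD mouse 1 lowered it to 4.

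**Figure D4:**
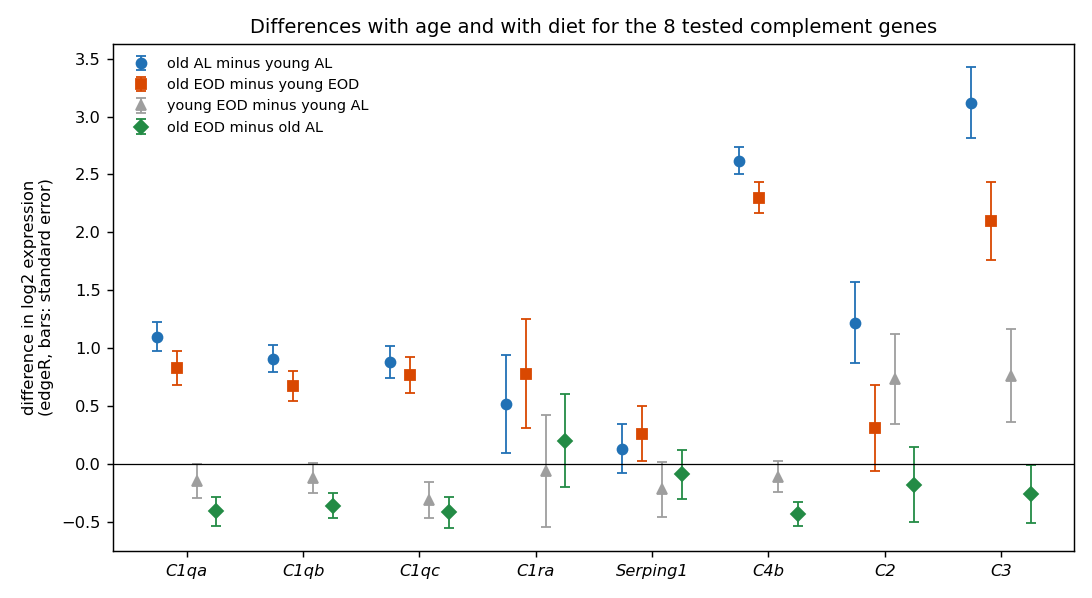
Difference in log2 expression (y axis) for 8 complement genes (x axis) in 4 comparisons, with bars for the standard error from edgeR. With age, C3 (3.12 and 2.10 in AL and EOD mice) and C4b (2.62 and 2.30) are highest, the C1q subunits lie between 0.67 and 1.10, and the diet differences in old mice are below 0 for 7 of the 8 genes.

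Levels per kb of exon put the members in order, and levels per kb of unshared length (without the part of a gene that another gene also holds, as given above) show how far that order depends on reads that could not be assigned. In young AL mice C1qb (29.7 ± 2.88 CPM per kb) and C1qa (24.2 ± 3.3) were highest and overlapped, followed by C1qc (10.9 ± 1.64), Serping1 (4.24 ± 1.08), C4b (2.82 ± 0.605), C1ra (0.377 ± 0.196), C2 (0.267 ± 0.103), C3 (0.163 ± 0.0559) and Cfb (0.0556 ± 0.055; SD, n = 4 each). Serping1 and C4b also overlapped between young AL mice, as did C1ra with C2, C2 with C3, and C3 with Cfb, so their order is one of means only. In old AL mice C1qb (55.9 ± 9.09 CPM per kb) and C1qa (51.7 ± 9.75) were again highest. C4b (17.5 ± 0.463 CPM per kb, SD, n = 4) was then above Serping1 (4.67 ± 1.25) in every mouse and overlapped with C1qc (20.1 ± 3.09). C3 (1.48 ± 0.557 CPM per kb) stood above C2 (0.614 ± 0.112) and C1ra (0.553 ± 0.0259). In old EOD mice the first 6 genes stood in the order found in old AL mice, from C1qb to C3, and C1ra and C2 overlapped.

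Part of that order did not hold per kb of unshared length, an alternative chosen after seeing the data. In young AL mice C4b was then at 4.31 ± 0.925 and Serping1 at 4.24 ± 1.08 CPM per kb (SD, n = 4), so that no order between them can be given at the young age. In old AL mice C4b, at 26.7 ± 0.707 CPM per kb of unshared length, was above Serping1 in every mouse as before, and also above C1qc (17.5 to 23.7). C3, from 1.08 to 2.27 CPM per kb, then overlapped in old AL mice with C1ra (1.07 to 1.19) and C2 (0.949 to 1.36). The order in old EOD mice changed too: C4b (19.9 ± 0.926 CPM per kb of unshared length) was above C1qc (15.1 ± 2.44) in every mouse. There C1ra (1.27 ± 0.522) and C3 (1.24 ± 0.214) overlapped (SD, n = 4 each). In young AL mice the mean of C3 was below that of C1ra by either length.

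**Figure D5:**
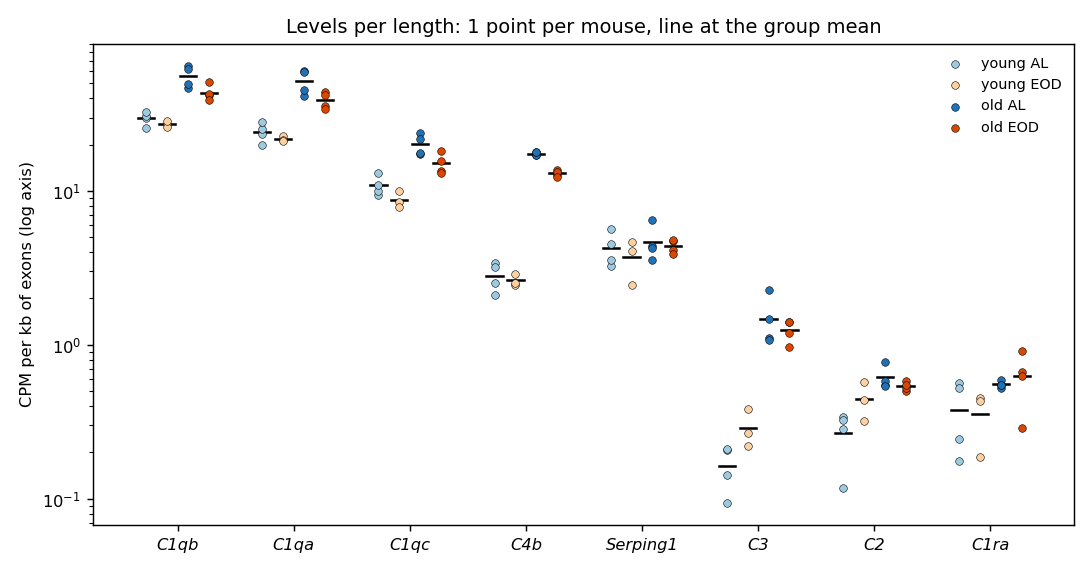
CPM per kb of exon (y axis, log scale) of 8 complement genes (x axis) in each mouse, in 4 groups, with a line at the group mean. C4b averages 2.82 CPM per kb in young AL and 17.5 in old AL mice, and Serping1 between 3.71 and 4.67 in all groups; per kb of unshared length young AL mice have 4.31 for C4b.

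The comparison of EOD with AL in young mice asks whether a short period on the regimen altered the genes. None of the 8 tested genes was called in edgeR, none had an unadjusted p under 0.05, and none was called in DESeq2. In edgeR 0.0% of all genes were called and 4.14% had an unadjusted p under 0.05. C3 was higher in all young EOD mice than in all young AL mice, which 2.4% of all genes also were, with a log2 difference of 0.76 (SE 0.402, edgeR FDR 0.996). Within lanes 1 and 2 the log2 ratio of C3 was 0.89 and 0.66. C2 differed by 0.73 (SE 0.39; 0.02 and 2.12 within lanes 1 and 2, the latter with young AL mouse 3 as the AL mouse) and C1qc by -0.31 (SE 0.155), with overlapping groups, and the others by between -0.22 and -0.06 (FDR of at least 0.996 for each). The median of the 8 was -0.11, against 0.00 for all genes. Without young AL mouse 3, C1qa was lower in each young EOD (22.1 to 23.7 CPM) than in each young AL mouse (24.5 to 29 CPM). The same held for C1qb (28.4 to 31.1 and 32.2 to 35.6 CPM), and neither was called. The share of all genes for which this held is not given here.

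In old mice the comparison concerns near-lifelong EOD, and 7 of the 8 tested genes had lower values in EOD than in AL mice, none of them past the FDR threshold. Lower values were not particular to the members: of the 25 other complement genes tested, described below, 22 were also lower (median -0.12, against 0.00 for all genes). C4b averaged 74.0 ± 3.45 CPM in old EOD against 99.5 ± 2.63 CPM in old AL mice (SD, n = 4 each), and no mouse overlapped, as was so for 1.36% of all genes in that direction. Its log2 difference was -0.43 (SE 0.103, 95% interval -0.64 to -0.21), with an unadjusted p of 0.000458 and an edgeR FDR of 0.989. Within lanes 1, 2 and 3 the log2 ratio of C4b was -0.44, -0.35 and -0.47, from 1 or 2 mice per group in each lane. C1qa differed by -0.41 (95% interval -0.68 to -0.15, unadjusted p 0.00337), C1qb by -0.36 (-0.59 to -0.12, p 0.00445) and C1qc by -0.42 (-0.69 to -0.14, p 0.0049), each with an edgeR FDR of 1 and overlapping groups. The C1q ratios within lanes were smaller in lane 1 (-0.22, -0.15 and -0.16 for C1qa, C1qb and C1qc) and lane 2 (-0.28, -0.17 and -0.18) than in lane 3 (-0.65, -0.61 and -0.72), where 2 EOD mice stand against 1 AL mouse. The microglia marker sums of the old groups overlapped, and the median log2 difference of the 9 markers was 0.03.

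Altogether 0 of the 8 genes were called for diet in old mice in edgeR (0.0% of all genes), 4 had an unadjusted p under 0.05 against 2.58% of all genes, and DESeq2 on all 15 mice called 0. C4b was called in 2 of the alternatives run, at the same log2 difference of -0.43. These were edgeR with every gene that had at least 1 count (FDR 0.0243, where 0.103% of all genes were called) and DESeq2 without young AL mouse 3 (FDR 0.0197, where 0.00763% were), and over all alternatives its FDR ranged from 0.0197 to 1. The median of the 8 genes was -0.31, against 0.00 for all genes. Old AL mouse 3, the mouse with the highest C1qa, C1qb and C1qc, also had the highest sum of 4 neutrophil markers (21.4 CPM, against 0 to 3.27 in the other mice). Without it C1qa differed by -0.34, C1qb by -0.28, C1qc by -0.34 and C4b by -0.41. C3 differed by -0.26 (SE 0.25, 95% interval -0.78 to 0.26), and by 0.03 without old AL mouse 1. Within lanes 1, 2 and 3 the log2 ratio of C3 was -1.24, -0.11 and 0.38. C2 differed by -0.18 (95% interval -0.85 to 0.49), Serping1 by -0.09 (-0.53 to 0.36) and C1ra by 0.20 (-0.64 to 1.04).

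Whether the difference with age itself depended on diet was tested as an interaction. No member was called in edgeR or DESeq2 (0.0% of all genes in edgeR), and 1 had an unadjusted p under 0.05 against 2.28% of all genes. For C3 the difference with age was smaller in EOD than in AL mice by 1.02 on the log2 scale (interaction -1.02, SE 0.473, 95% interval -2.0 to -0.04, unadjusted p 0.043, edgeR FDR 1). Without old AL mouse 1 the interaction of C3 was -0.74. For C4b it was -0.32 (95% interval -0.67 to 0.03, unadjusted p 0.0746), and -0.43 (p 0.0126, edgeR FDR 1) without young AL mouse 3. It was -0.27 for C1qa (-0.67 to 0.13), -0.24 for C1qb (-0.59 to 0.11), -0.11 for C1qc (-0.53 to 0.32), and -0.91 for C2 (-1.96 to 0.15). The smallest interaction of C2 with 1 mouse left out was -0.62. For Serping1 it was 0.13 (-0.53 to 0.79) and for C1ra 0.26 (-1.05 to 1.58). Apart from that of C3, each interval given here includes 0.

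A list of 46 further genes of the system was examined by role, of which 25 were tested. The list was drawn up with earlier results of these data known, so its calls and FDR values are descriptions. Between old AL and young AL mice 3 were called, all higher and all receptors for complement fragments or their partners, where 1.09% of all genes were called. Itgax and Itgb2 encode the alpha and beta chains of complement receptor 4, and C3ar1 the receptor for the fragment C3a. Itgb2 ranged from 3.85 to 6.8 CPM in young AL and from 9.33 to 13.4 CPM in old AL mice (log2 fold change 1.12, SE 0.185, edgeR FDR 0.00225). C3ar1 ranged from 1.65 to 2.59 and from 4.54 to 9.33 CPM in the same groups (1.38, SE 0.264, FDR 0.00914). Itgax had 1 to 2 reads in each young AL mouse and 11 to 29 in each old AL mouse (edgeR FDR 6.26e-05). Itgam, the alpha chain of complement receptor 3 and the most abundant receptor gene at 28.1 CPM on average, was called without young AL mouse 3 (0.53, FDR 0.0119) and not with it (0.30, FDR 0.525).

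Between old EOD and young EOD mice 1 of the 25 was called (0.29% of all genes), Itgax, with 2 to 3 reads in young and 12 to 26 in old mice (edgeR FDR 0.0922). Itgb2 (0.80, FDR 0.215) and C3ar1 (1.09, FDR 0.33) had no overlap between the ages and were not called, and Itgb2 was called without young AL mouse 3 (0.81, FDR 0.066). None of the 25 was called for diet at either age or for the interaction in edgeR, with 2, 2 and 1 at an unadjusted p under 0.05, against 4.14%, 2.58% and 2.28% of all genes, and DESeq2 called 0 in these comparisons. DESeq2 also called 0 of the listed genes with age in EOD mice, Itgax included. The other 22 tested genes, among them the most abundant of each remaining role, were not called in any comparison with all 15 mice. These were Clu, clusterin, which binds the terminal complex (638 to 712 CPM in old AL and 588 to 704 CPM in young AL mice), Susd4, a membrane regulator (112 to 130 and 117 to 129 CPM), Masp2, a protease of the lectin pathway (19.5 to 24.9 and 20.4 to 24.9 CPM), Cfp, the stabiliser properdin (1.93 to 2.86 and 2.02 to 3.63 CPM), and C8g, a terminal component (0.189 to 1.05 and 0 to 1.34 CPM). Of the terminal components, 1 of 7 passed the filter on low counts, and of the lectin pathway 3 of 9. The median of all 25 was 0.04 in AL and 0.01 in EOD mice with age, against -0.01 and 0.00 for all genes. Cd59a, a membrane inhibitor of the terminal complex named here after its values were seen, was higher in each old AL than in each young AL mouse (0.41, SE 0.137, edgeR FDR 0.256) and was not called, and in EOD mice it differed by -0.08 (SE 0.149, FDR 0.995). Each old EOD mouse (8.1 to 8.79 CPM) was below each old AL mouse (9.92 to 11.2 CPM) in Cd59a (-0.31, SE 0.136), as was so for 1.36% of all genes. Its interaction was -0.49 (SE 0.202), and neither was called. Cfp was lower in each young EOD (0.688 to 1.44 CPM) than in each young AL mouse (-1.11, SE 0.378, edgeR FDR 0.996).

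The genes with the most similar profiles over the 15 mice were found as those with the smallest root mean square (RMS) difference of centred log2 CPM among 13985 genes. For C1qa they were C1qb (0.107), H2-D1 (0.187) and Ctss (0.19), where the RMS of the C1qa profile itself was 0.523. For C1qb they were C1qa (0.107), H2-K1 (0.157) and Ctss (0.167), and for C1qc C1qb (0.171), Fcer1g (0.185) and Trem2 (0.188). H2-D1 and H2-K1 encode class I antigen-presenting molecules, Ctss a lysosomal protease, and Fcer1g and Trem2 a signalling chain and a receptor of microglia. For C4b the nearest were C3 (0.438), Lyz2 (0.468) and ENSMUSG00000095041 (0.572), and for C3 C4b (0.438), Lyz2 (0.6) and Serpina3n (0.703), against own profiles of 1.25 and 1.3. Lyz2 encodes a lysozyme of myeloid cells, and Serpina3n a protease inhibitor known from reactive astrocytes. These are descriptions over mice that share 4 groups, so that any gene with a similar difference between the ages comes close.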

How the data were processed

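Whole-brain RNA of 15 mice was sequenced by the authors in 50-base single-end reads, aligned with STAR (version not given in the sources used here) and counted with featureCounts 1.5.0-p1 (Ensembl release 79, GRCm38, primary alignments, minimum mapping quality 5, reverse-stranded). The deposited values are raw counts per gene and mouse, replicates not pooled. Of 43629 gene IDs, 42462 matched a symbol (GENCODE M21). Genes were filtered with filterByExpr, scaled by TMM and fitted in 1 model of the 4 group means with edgeR 4.0.16 (R 4.3.3), and 5 contrasts were tested at FDR under 0.1. The interval of a difference is its log2 value with the t quantile for 95%. DESeq2 1.42.0 was an alternative, and others are given under the dependence on processing. The script was tested on simulated counts. Counts within a group differed by more than sampling noise in every pair (chi-square per degree of freedom of at least 3.14). The complement members, the other gene lists and their tests were chosen with earlier results of these data known. Genes named beside the members were the listed complement genes called in any contrast, the most abundant gene of each role, paralogs and overlapping genes, and the 3 nearest profiles (average log2 CPM of at least 1) of 5 members. Of the microglia markers, 1 is not reported here and was left out of the marker sums. All p-values measure the spread between mice of 1 strain and sex.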

Additional observations from a re-analysis of the deposited data

How the results depend on the processing

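The number of members called between old and young AL mice was 5 in all 15 fits that left out 1 mouse and 4 to 5 under the other 9 alternatives, with 4 where at least 10 counts in every mouse were required, a filter that removed C3, C2 and C1ra. In EOD mice the number was 3 to 5 when 1 mouse was left out and 4 to 5 otherwise. It was 0 throughout for the interaction and for diet at the young age. For diet in old mice it was 0 except for 1, C4b, with every gene that had at least 1 count, and 1, C4b, in DESeq2 without young AL mouse 3, an alternative chosen after seeing the data. The cause was not tested. Same-numbered mice did not deviate together (mean r -0.0266, from -0.113 to 0.113 over 21 pairs), so the replicate numbers do not pair the mice. With the replicate block 5, 5, 0, 0 and 0 members were called for age in AL, age in EOD, diet in young, diet in old and the interaction, and it changed no call. Small differences that changed sign were those of Serping1 for age in AL (0.13, from -0.08 to 0.29 over the fits that left out 1 mouse), diet in young (-0.43 to 0.04), diet in old (-0.21 to 0.12) and the interaction (-0.12 to 0.34), of C1ra for diet in young (-0.27 to 0.19, and 0.13 in DESeq2 without young AL mouse 3) and diet in old (-0.05 to 0.42), of C4b for diet in young (-0.22 to 0.01, and 0.00 in that DESeq2 fit), of C3 for diet in old (-0.40 to 0.03) and of C1qc for the interaction with the lane as a factor (0.01). By counts in place of counts per kb the shares were 33.6% for C1qa, 40.9% for C1qb and 25.5% for C1qc. Levels per kb of unshared length changed, among others, the order of C4b and Serping1 in young mice and of C4b and C1qc in old mice, as given with the levels. Depth limits Cfb, C1ra, C2 and C3 in young mice, where 3 to 19 reads stand behind a value of the last 3, and a count of 0 allows up to 3 reads.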
